A study of Mus musculus with 9 samples.

Results

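The 7 genes described here are Cxcr6 and its ligand Cxcl16, the integrin subunits Itgae and Itga1, and the egress genes Cd69, S1pr1 and Klf2, which together are read as marks of lymphocytes that stay in a tissue. They were picked by symbol among the 57010 genes of the abundance table, after Cxcr6 was known to be higher in CuO NPs + TTM lungs than in CuO NPs lungs. Values of that comparison therefore describe the genes and test nothing, and no p-value is given for Cxcr6 in any comparison. RNA of whole lung was sequenced from 9 mice of the inbred strain C57BL/6J, 3 mice per group. Mice of the CuO NPs + TTM group were given copper oxide nanoparticles once into the trachea, in 100 µl of saline at 2 mg/mL, and drank water with TTM at 0.02 mg/mL, a compound the labels do not spell out. Mice of the CuO NPs group had the particles at that dose without TTM, and control mice had saline alone in equal volume. Tissue was collected from all groups at day 7. There was no group with TTM and no particles, so an effect of TTM by itself cannot be told apart from an effect on the response to particles.

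Lymphocytes that settle in the lung are held there by several signals at once. CXCR6, a chemokine receptor of resident memory T cells, natural killer T cells and some innate lymphocytes, binds CXCL16, a chemokine that macrophages, dendritic cells and epithelium carry on their membrane or shed. CD103, the product of Itgae, pairs with the beta 7 integrin chain to grip E-cadherin on epithelium, and CD49a, the product of Itga1, pairs with the beta 1 chain to bind collagen. S1PR1 senses sphingosine 1-phosphate and leads lymphocytes out into blood and lymph, KLF2 is the transcription factor that keeps its gene on in T cells, and CD69 pulls S1PR1 off the cell surface. None of these genes is private to lymphocytes in a whole lung: S1pr1 and Klf2 are abundant in endothelium, Itga1 in smooth muscle, pericytes and capillaries, Itgae in a subset of dendritic cells, and Cxcl16 in macrophages.

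Promoters are shown for the gene with the largest difference between groups, Cxcr6, and for the transcription factor, Klf2. Each is the 250 bases before the annotated start, on the plus strand, from RefSeq with build GRCm38.p6, chr9:123806227-123806476 for Cxcr6 and chr8:72318812-72319061 for Klf2. The sequence table holds 3 of the 7 genes, and the coordinates belong to that build, not to the GRCm39 build named for the abundance table. Capitals mark a RUNX motif, TGTGGT read on the minus strand, in Cxcr6 and a MEF2 consensus in Klf2.
Cxcr6: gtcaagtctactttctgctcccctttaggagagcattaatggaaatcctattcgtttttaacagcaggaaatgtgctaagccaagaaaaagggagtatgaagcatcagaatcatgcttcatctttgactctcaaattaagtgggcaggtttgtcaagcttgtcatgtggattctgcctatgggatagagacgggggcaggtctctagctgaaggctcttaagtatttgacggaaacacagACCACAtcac
Klf2: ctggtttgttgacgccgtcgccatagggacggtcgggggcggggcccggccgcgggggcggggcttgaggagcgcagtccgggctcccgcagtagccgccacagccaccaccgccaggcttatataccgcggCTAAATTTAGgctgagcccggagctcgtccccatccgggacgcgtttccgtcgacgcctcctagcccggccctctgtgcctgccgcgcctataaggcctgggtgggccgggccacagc
The RUNX letters lie at positions -10 to -5 before the Cxcr6 start, where RUNX3 is a regulator of resident and CD8 T cells, and 14.0% of 32851 promoters of this length hold them on either strand. The MEF2 match lies at -118 to -109 before the Klf2 start, and 2.92% of these promoters hold one. The KLF core CACCC, searched on both strands, was found 0 times in the Cxcr6 window, 1 time in that of Klf2 and 2 times in that of Itga1, against 52.0% of promoters with at least 1. The T-box letters GGTGTGA were in none of these 3 windows, against 3.33% of promoters. These matches are letters in a window and say nothing of binding.

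Abundance is in TPM, a share of all transcripts that corrects for transcript length, so that levels can be set side by side between genes. All 7 genes passed the abundance filter of 1 TPM in at least 3 libraries, as 15487 genes did. In CuO NPs + TTM lungs the order of mean TPM was Cxcl16, S1pr1, Cxcr6, Klf2, Itga1, Itgae and Cd69. In control lungs it was S1pr1, Klf2, Cxcl16, Itga1, Cd69, Cxcr6 and Itgae. Cxcr6 was thus the third of the 7 in CuO NPs + TTM lungs and the sixth in control lungs. Every pair of neighbours in the CuO NPs + TTM order overlapped between lungs. Within each of these lungs Klf2 was above Itga1 and Itga1 above Itgae, while the other neighbours changed places between lungs. In control lungs S1pr1 stood clear of Klf2, Itga1 of Cd69, and Cxcr6 of Itgae, while the other neighbours overlapped.

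Libraries differed in ways that touch every value. The lung markers Sftpc, Sftpb, Ager and Pecam1 were abundant in all 9 libraries, with a lowest value of 207 TPM for Pecam1. Scgb1a1, the club cell secretory gene, held 8.17%, 0.180% and 0.353% of all TPM in CuO NPs + TTM libraries, 6.90% to 12.3% in CuO NPs libraries and 17.3% to 22.5% in control libraries. The median gene lay 0.24 above zero on the log2 scale between CuO NPs + TTM and control, 0.03 above between CuO NPs and control, and 0.19 above between CuO NPs + TTM and CuO NPs. With Scgb1a1 removed and TPM rescaled, these medians were 0.00, -0.11 and 0.10. CuO NPs replicate 1 stood apart, with correlations across genes of 0.864 to 0.901 with the other libraries. On the log2 scale its median gene lay at -0.53 from the mean over all 9 libraries, against -0.16 to 0.26 in the others. A low value in that lung is therefore not by itself particular to a gene. In bulk tissue, a different number of cells of a type and a different amount of RNA per cell cannot be told apart.

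Cxcr6 (ENSMUSG00000048521) was high in all CuO NPs + TTM lungs and low in all others. It had 50.1, 133 and 80.4 TPM in CuO NPs + TTM lungs, 2.02, 11.7 and 8.04 TPM in CuO NPs lungs, and 6.39, 5.92 and 5.98 TPM in control lungs. The lowest CuO NPs + TTM lung was thus above the highest lung of either other group, while the CuO NPs lungs straddled the narrow control range. Mean levels were 87.9 ± 42.1 TPM in CuO NPs + TTM lungs, 7.26 ± 4.90 TPM in CuO NPs lungs and 6.10 ± 0.256 TPM in control lungs (SD, n = 3 each). As the difference that led to the choice of these genes, CuO NPs + TTM exceeded CuO NPs by 3.55 in mean log2(TPM + 1), with a standard error of 0.52, and exceeded control by 3.54. Between CuO NPs and control the difference was -0.01, and 0.60 without CuO NPs replicate 1. Cxcr6 lies within Fyco1, a gene of the opposite strand, and the sources used here do not say whether the counting used strand. Fyco1 itself had 6.31, 8.30 and 10.9 TPM in CuO NPs + TTM lungs, 4.20, 10.7 and 14.4 TPM in CuO NPs lungs and 12.2, 10.7 and 9.17 TPM in control lungs, an order unlike that of Cxcr6.

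Cxcl16 (ENSMUSG00000018920), the ligand, was more abundant than its receptor in all 9 lungs. Its levels were 191, 145 and 119 TPM in CuO NPs + TTM lungs, 61.5, 121 and 82.9 TPM in CuO NPs lungs, and 45.7, 44.3 and 74.9 TPM in control lungs. The CuO NPs + TTM lungs were all above the control lungs, with overlap between the CuO NPs lungs and both other groups. Means were 152 ± 36.4 TPM with CuO NPs + TTM, 88.6 ± 30.4 TPM with CuO NPs and 54.96 ± 17.3 TPM in control (SD, n = 3 each). Against control, Cxcl16 differed by 1.46 on the log2 scale in CuO NPs + TTM lungs (SE 0.33, limma adjusted p = 0.0609) and by 0.67 in CuO NPs lungs (SE 0.33, limma adjusted p = 0.676), so neither passed the threshold of 0.05. The adjusted p of the comparison of CuO NPs + TTM with control was 0.0181 without CuO NPs replicate 1 and 0.0474 without CuO NPs replicate 2, and ranged from 0.0181 to 0.438 over 17 alternatives. CuO NPs replicates 1 and 2 are in neither group of that comparison, so leaving either out kept the difference and changed the shared spread. Without CuO NPs replicate 1, calls over all genes rose from 294 to 1676 there. Against CuO NPs lungs the CuO NPs + TTM lungs were 0.80 higher, as a description. Zmynd15, which overlaps Cxcl16 on the opposite strand, had 11.9, 8.32 and 6.52 TPM in CuO NPs + TTM lungs, 2.38, 10.1 and 5.81 TPM in CuO NPs lungs, and 2.42, 2.35 and 6.05 TPM in control lungs. The order of lungs within each of the 3 groups was the same as for Cxcl16, and reads of the pair cannot be told apart if strand was not used.

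**Figure D1:**
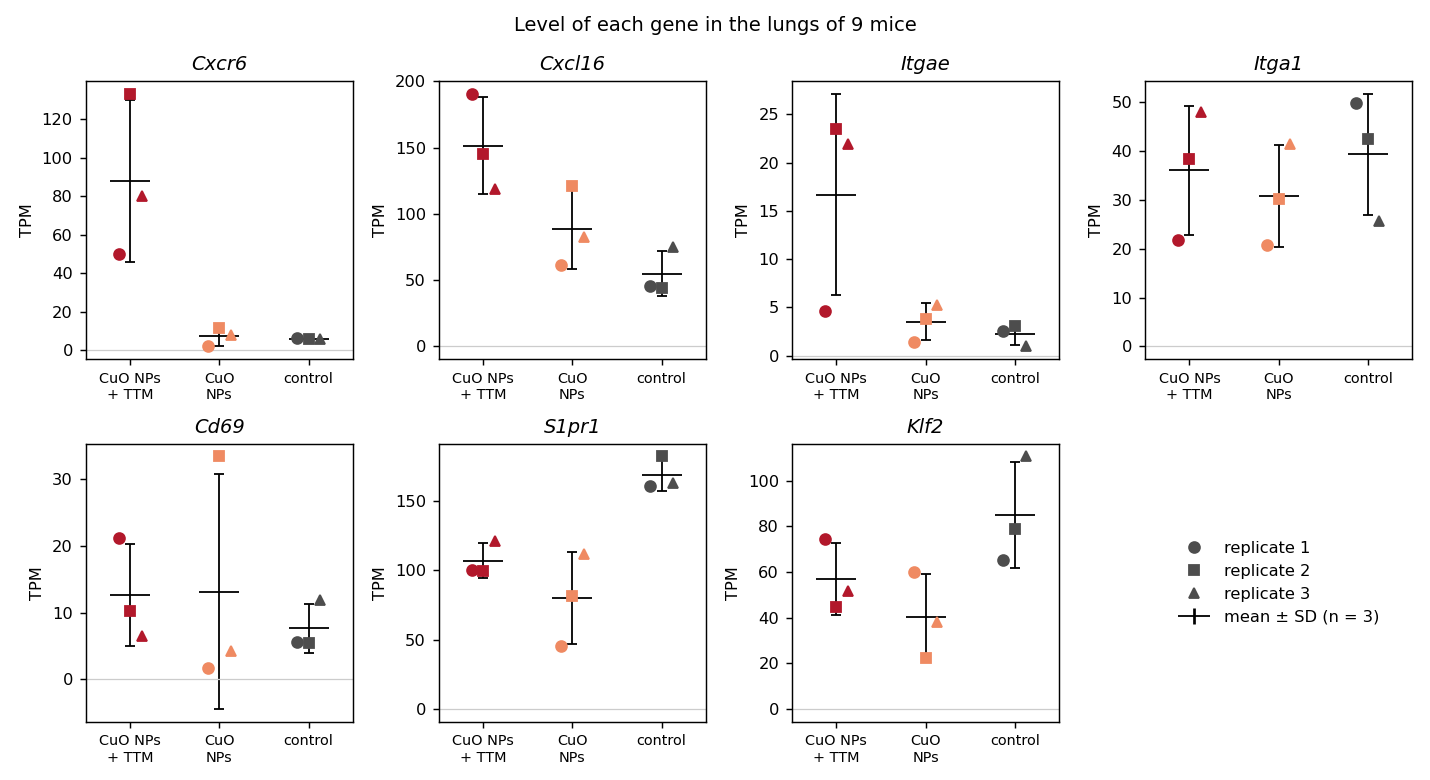
TPM of the 7 genes on linear axes, 1 point per lung (symbol shape gives the replicate), with bars at the mean ± SD of CuO NPs + TTM, CuO NPs and control lungs from left to right. Cxcr6 separates the CuO NPs + TTM lungs, at 50.1 to 133 TPM, from all others, and Cd69 and Itga1 overlap between all groups.

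Itgae (ENSMUSG00000005947), which encodes CD103, was the least abundant of the genes in control lungs and varied widely with CuO NPs + TTM. It had 4.66, 23.5 and 21.9 TPM in CuO NPs + TTM lungs, 1.46, 3.79 and 5.27 TPM in CuO NPs lungs, and 2.52, 3.10 and 0.96 TPM in control lungs. CuO NPs + TTM replicate 1 sat below CuO NPs replicate 3, whereas every CuO NPs + TTM lung was above every control lung. The group means were 16.7 ± 10.5 TPM in CuO NPs + TTM lungs, 3.51 ± 1.92 TPM in CuO NPs lungs and 2.19 ± 1.11 TPM in control lungs (SD, n = 3 each). The difference from control was 2.27 with CuO NPs + TTM (SE 0.59, limma adjusted p = 0.0945) and 0.46 with CuO NPs (SE 0.59, limma adjusted p = 0.989). Without CuO NPs + TTM replicate 1 the first of these was 2.96 with a limma adjusted p of 0.0230, without CuO NPs replicate 1 the adjusted p was 0.0417, and the range over 17 alternatives was 0.0230 to 0.765. CuO NPs replicate 1 is in neither group of the comparison of CuO NPs + TTM with control. Leaving it out raised calls over all genes from 294 to 1676 there. With replicates 2 and 3 of CuO NPs + TTM left out together, the difference between CuO NPs + TTM and CuO NPs was 0.43, against 1.81 with all libraries. Haspin, an opposite-strand gene that overlaps Itgae, had 4.22 to 5.68 TPM in CuO NPs + TTM lungs, 1.90 to 3.48 TPM in CuO NPs lungs and 1.22 to 1.73 TPM in control lungs.

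Itga1 (ENSMUSG00000042284), which encodes CD49a, showed no separation of the groups. It had 21.8, 38.3 and 48.0 TPM in CuO NPs + TTM lungs, 20.6, 30.1 and 41.4 TPM in CuO NPs lungs, and 49.8, 42.4 and 25.6 TPM in control lungs. All groups spanned nearly the same range. The difference from control was -0.14 with CuO NPs + TTM (SE 0.38, limma adjusted p = 0.890) and -0.35 with CuO NPs (SE 0.38, limma adjusted p = 0.975). Between CuO NPs + TTM and CuO NPs it was 0.21, and turned to -0.05 under quantile normalization, -0.03 under median-ratio scaling, and -0.42 with CuO NPs + TTM replicates 2 and 3 left out together. Pelo, which overlaps Itga1, is among the genes whose reads could be shared with it.

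The partners of these integrin subunits are Itgb7, for the beta chain that pairs with CD103, Itgb1, for the beta chain that pairs with CD49a, and Cdh1, which encodes E-cadherin. Itgb7 had 122, 107 and 58.4 TPM in CuO NPs + TTM lungs, 39.8, 29.3 and 17.2 TPM in CuO NPs lungs, and 26.5, 30.7 and 32.9 TPM in control lungs. Every CuO NPs + TTM lung was above every lung of the other groups, and the difference from control was 1.58 with a limma adjusted p of 0.0647. Itgb7 was highest in CuO NPs + TTM replicate 1, the lung in which Itgae was lowest of its group. Itgb1 had 259 to 521 TPM with CuO NPs + TTM, 163 to 507 TPM with CuO NPs and 303 to 367 TPM in control, and Cdh1 differed from control by 0.30 with CuO NPs + TTM (limma adjusted p = 0.694). Of the 12 genes for integrin partners, E-cadherin and basement membrane ligands, limma called 0 in any comparison. At an unadjusted p under 0.05 there were 3 against control with CuO NPs + TTM (all genes 18.0%) and 1 with CuO NPs (all genes 7.95%). Their median log2 difference from control was 0.37 with CuO NPs + TTM, against 0.24 over all genes, and 0.30 with CuO NPs, against 0.03 over all genes. The first median was 0.04 under quantile normalization.

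Cd69 (ENSMUSG00000030156), the early activation marker that retains lymphocytes, was set apart by single lungs. Its levels were 21.2, 10.3 and 6.55 TPM in CuO NPs + TTM lungs, 1.73, 33.5 and 4.29 TPM in CuO NPs lungs, and 5.63, 5.48 and 11.9 TPM in control lungs. The highest and the lowest of all 9 lungs were both in the CuO NPs group, and all groups overlapped. The difference from control was 0.59 with CuO NPs + TTM (SE 0.82, limma adjusted p = 0.763) and -0.05 with CuO NPs (SE 0.82, limma adjusted p = 0.997). Leaving out each library in turn moved the second of these between -1.11 and 0.72, so its direction rests on single lungs. The 95% interval with CuO NPs + TTM ran from -1.26 to 2.44.

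S1pr1 (ENSMUSG00000045092), the exit receptor, lay below every control lung in every particle-exposed lung, without passing the test. It had 100.02, 99.35 and 121 TPM in CuO NPs + TTM lungs, 45.8, 81.8 and 112 TPM in CuO NPs lungs, and 161, 182 and 163 TPM in control lungs. The control lungs were tightly grouped, and the CuO NPs lungs reached lowest in replicate 1. Means were 107 ± 12.5 TPM with CuO NPs + TTM, 79.9 ± 33.2 TPM with CuO NPs and 169 ± 11.7 TPM in control (SD, n = 3 each). The difference from control was -0.66 with CuO NPs + TTM (SE 0.31, limma adjusted p = 0.305) and -1.16 with CuO NPs (95% interval -1.86 to -0.46, limma adjusted p = 0.294). CuO NPs replicate 1 is in neither group of the first comparison. Leaving it out raised calls over all genes from 294 to 1676 there. For CuO NPs + TTM the limma adjusted p was 0.0474 under median-ratio scaling and 0.0466 without CuO NPs replicate 1, within a range of 0.0466 to 0.759 over 17 alternatives.

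Klf2 (ENSMUSG00000055148), which in T cells turns on S1pr1 and in endothelium answers to blood flow, had 74.6, 44.7 and 51.7 TPM in CuO NPs + TTM lungs, 60.0, 22.6 and 38.0 TPM in CuO NPs lungs, and 65.3, 78.8 and 111 TPM in control lungs. The CuO NPs lungs were all below the control lungs, and CuO NPs + TTM replicate 1 lay inside the control range. Means were 57.0 ± 15.7 TPM with CuO NPs + TTM, 40.2 ± 18.8 TPM with CuO NPs and 84.9 ± 23.3 TPM in control (SD, n = 3 each). The difference from control was -0.57 with CuO NPs + TTM (SE 0.38, limma adjusted p = 0.473) and -1.13 with CuO NPs (SE 0.38, limma adjusted p = 0.449). S1pr1 and Klf2 were thus the members whose CuO NPs lungs did not overlap control lungs.

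Against the whole table these counts read as follows. With CuO NPs + TTM against control, 294 genes passed the test, 1.90% of 15487, of which 277 were higher and 17 lower. Under quantile normalization the split was 227 higher and 64 lower, and under median-ratio scaling 209 and 53. None of the members with a printed p-value passed. Cxcr6, whose CuO NPs + TTM lungs led to the choice of genes, is not counted. Groups of Cxcr6, Cxcl16 and Itgae did not overlap in the higher direction, as for 31.0% of all genes, and those of S1pr1 did not in the lower direction, as for 5.73%. In either direction that makes 4 of the 7, against 36.8% of all genes. The 4 include Cxcr6, whose values led to the choice, so this count is a description and nothing is read from it. With CuO NPs against control, limma called 0 genes of the table (0.00%), with 1231 (7.95%) at an unadjusted p under 0.05. With CuO NPs + TTM against control that share was 18.0%. In the comparison of CuO NPs with control, 0 members had all CuO NPs lungs above control lungs, against 9.37% of all genes, and the 2 members all below control, S1pr1 and Klf2, stand against 3.53% of all genes all below. With CuO NPs + TTM against CuO NPs, the comparison behind the choice of genes, 110 genes passed, 0.710% of the table, with 107 higher (0.691%) and 3 lower (0.0194%). In that comparison 7.75% of genes had an unadjusted p under 0.05, and 9.78% had every CuO NPs + TTM lung above every CuO NPs lung, as Cxcr6 did. Nothing is read from these counts. The 3 comparisons share libraries, so a member's values in one are not independent of those in another.

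**Figure D2:**
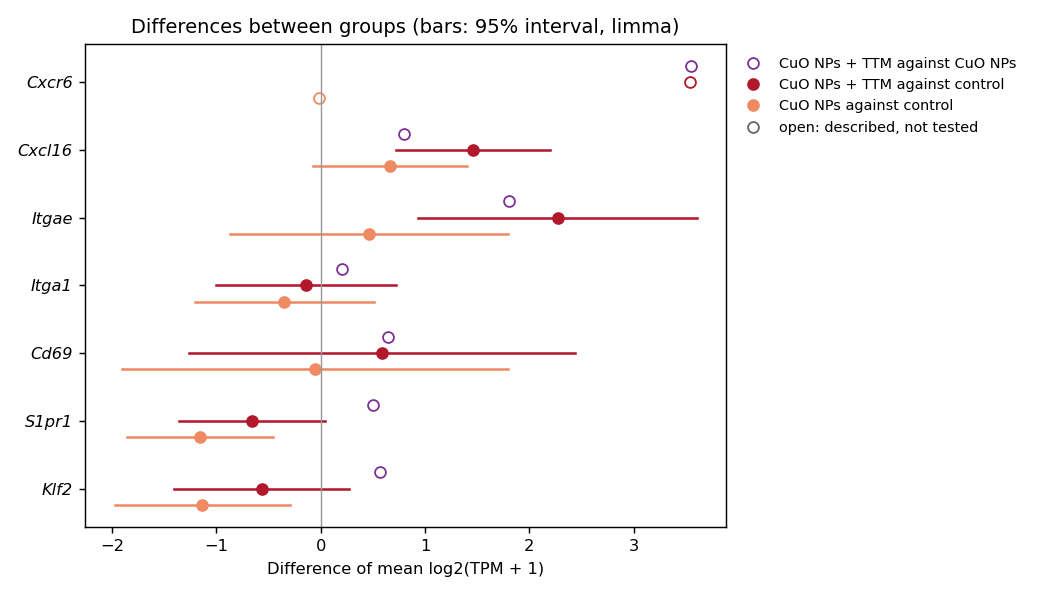
Differences of mean log2(TPM + 1) of the 7 genes in the 3 comparisons on the log2 axis; filled points carry 95% limma intervals, and open points are described without a test. Cxcr6 lies at 3.55 and 3.54 in the 2 comparisons of CuO NPs + TTM, and S1pr1 and Klf2 lie below zero against control.

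The residency list holds 34 genes that resident T cells share, chosen from general knowledge with earlier results of these data known. Of its 33 tested genes, 5 were higher in CuO NPs + TTM lungs than in control lungs and 0 lower, against 1.79% and 0.110% of all genes, and 27 of 33 were above zero with a median of 0.40, against 71.0% of all genes and a median of 0.24. With CuO NPs against control limma called 0, with 2 at an unadjusted p under 0.05 (all genes 7.95%). The median of the list was 0.08 there, which was -0.06 without Scgb1a1. Pdcd1, the inhibitory receptor PD-1, had 28.5, 23.7 and 18.5 TPM in CuO NPs + TTM lungs, 0.63, 3.29 and 1.17 TPM in CuO NPs lungs, and 0.77, 0.92 and 3.48 TPM in control lungs. It was 3.29 above control on the log2 scale (limma adjusted p = 0.0188). Icos, a costimulatory receptor, was 2.84 above control (limma adjusted p = 0.0446), and Cxcr3, the receptor of interferon-induced chemokines, was 2.71 above it (limma adjusted p = 0.0182). Ccr8, a chemokine receptor, was 1.82 above control (limma adjusted p = 0.0387), and Hpgds, a prostaglandin D synthase, was 1.75 above it (limma adjusted p = 0.0281). Hpgds was also 1.25 above control in CuO NPs lungs, with no overlap (limma adjusted p = 0.246). Pdcd1, Icos, Cxcr3 and Ccr8 differed from control by -0.24 to 0.25 in CuO NPs lungs. In all 5 genes the lowest CuO NPs + TTM lung exceeded the highest control lung, as for 31.0% of all genes. They were named because they passed between CuO NPs + TTM and control, so this separation is a description only. The list of 18 T cell markers differed by a median of 2.21 in the same comparison, and its part in these calls was not tested. These calls depend on single libraries: 0 of the 33 genes passed when replicate 2 or 3 of CuO NPs + TTM, or replicate 1 or 2 of the control, was left out, and 10 passed without CuO NPs replicate 1. Over the whole table, 1676 genes passed without CuO NPs replicate 1, against 294 with all libraries. Under other settings the count in the list was 3 with quantile normalization or a pseudocount of 0.1, and 1 with no filter. It was 2 with median-ratio scaling, without Scgb1a1 or with the replicate number as a block.

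Of the transcription factors of residency, Runx3, Prdm1 and Zfp683 were fixed for description, and they do not stand for the other factors of the list. Runx3 had 17.8, 10.8 and 8.11 TPM in CuO NPs + TTM lungs, 1.07, 5.86 and 3.07 TPM in CuO NPs lungs, and 3.17, 2.73 and 4.03 TPM in control lungs. It was 1.56 above control with CuO NPs + TTM, with no overlap, at a limma adjusted p of 0.112. Prdm1, which encodes Blimp-1, had 6.23, 6.61 and 8.21 TPM in CuO NPs + TTM lungs, 1.17, 4.12 and 6.54 TPM in CuO NPs lungs, and 5.12, 6.39 and 3.87 TPM in control lungs, and overlapped between groups. Zfp683, which encodes the Hobit protein of mouse resident lymphocytes, was at 0.95, 1.67 and 2.40 TPM in CuO NPs + TTM lungs, 0.07, 0.70 and 0.63 TPM in CuO NPs lungs, and 0.14, 0.50 and 0.27 TPM in control lungs. It did not reach the abundance filter and was not tested.

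The circulation list holds 18 genes of lymphocytes that travel through blood and lymph nodes. Limma called 0 of them in any comparison, with 3 against control at an unadjusted p under 0.05 for CuO NPs + TTM, all above zero, and 3 for CuO NPs, all below. Over all genes these shares were 18.0% and 7.95%. With CuO NPs against control, 2 of 18 were above zero and the median was -0.55, against 53.5% of all genes and a median of 0.03, and 7 of 18 had all CuO NPs lungs below control lungs, against 3.53% of all genes. Without CuO NPs replicate 1 the median was -0.24 and 5 of 18 were above zero. In the same comparison the T cell list had a median of -0.27 and the B cell list one of -0.90, and their part was not tested. With CuO NPs + TTM against control, 13 of 18 were above zero and the median was 0.20, which became -0.08 under quantile normalization and -0.04 under median-ratio scaling. With CuO NPs + TTM against CuO NPs, as a description, all 18 were above zero with a median of 0.86. The residency list had 26 of 33 above zero and a median of 0.51 there, and all genes 72.6% and 0.19. Ccr7, which guides cells to lymph nodes, had 42.6, 8.90 and 8.76 TPM in CuO NPs + TTM lungs, 4.02, 9.12 and 5.48 TPM in CuO NPs lungs, and 10.2, 10.2 and 7.40 TPM in control lungs. CuO NPs + TTM replicate 1 was the highest of its group. S1pr5, an exit receptor of natural killer cells, had 3.67, 1.15 and 0.72 TPM in CuO NPs + TTM lungs, 0.32, 0.46 and 0.56 TPM in CuO NPs lungs, and 3.03, 4.33 and 2.15 TPM in control lungs, a difference between CuO NPs and control of -1.50 (limma adjusted p = 0.263).

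**Figure D3:**
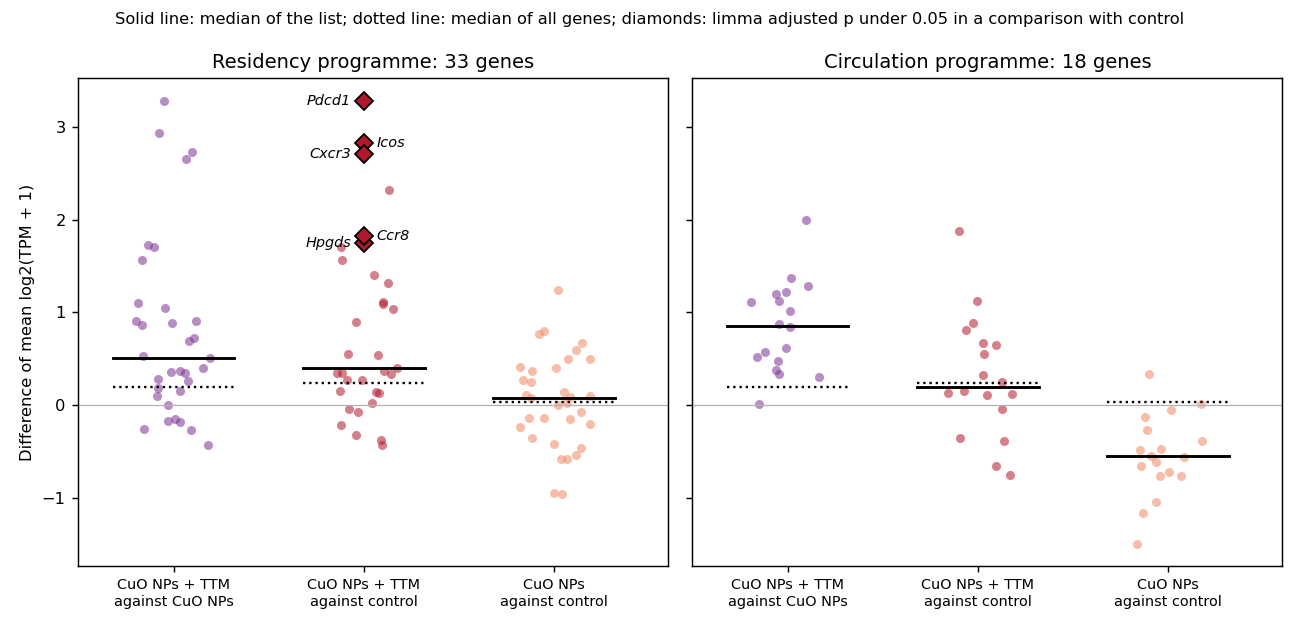
Differences of mean log2(TPM + 1) for 33 residency and 18 circulation genes, 1 point per gene, in the 3 comparisons. The 5 named residency genes lie between 1.75 and 3.29 above control with CuO NPs + TTM, and the circulation median lies at -0.55 between CuO NPs and control.

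The genes that supply these signals gave no call. Of 17 tested genes for CXCL16 shedding and handling of sphingosine 1-phosphate, limma called 0 in any comparison. At an unadjusted p under 0.05 there were 5 for CuO NPs + TTM against control (all genes 18.0%) and 2 for CuO NPs (all genes 7.95%). The medians against control were 0.36 for CuO NPs + TTM and 0.04 for CuO NPs, against 0.24 and 0.03 over all genes. Under quantile normalization the medians of the list were 0.05 and -0.02. Adam17, a protease that sheds membrane proteins, had 34.4, 49.0 and 46.0 TPM in CuO NPs + TTM lungs, 40.7, 47.6 and 47.8 TPM in CuO NPs lungs, and 27.0, 31.8 and 23.98 TPM in control lungs. Both exposed groups were all above control, CuO NPs + TTM by 0.62 (limma adjusted p = 0.195) and CuO NPs by 0.70 (limma adjusted p = 0.439). Adam10, the main sheddase of CXCL16, was 0.67 above control with CuO NPs + TTM (limma adjusted p = 0.510) and overlapped. Of 17 tested retention and survival signals, limma called 0 in any comparison. At an unadjusted p under 0.05 there were 4 for CuO NPs + TTM against control (all genes 18.0%) and 2 for CuO NPs (all genes 7.95%). All 17 were above zero with CuO NPs + TTM against control, with a median of 0.79, against 71.0% of all genes and a median of 0.24. Under quantile normalization 14 of 17 were above zero. Without CuO NPs replicate 1, 4 of them passed in that comparison, as did 1676 genes of the whole table, against 294 with all libraries. Tgfb1, a cytokine that induces CD103, had 77.8, 72.8 and 70.2 TPM in CuO NPs + TTM lungs, 45.0, 52.5 and 60.4 TPM in CuO NPs lungs, and 33.7, 49.9 and 43.1 TPM in control lungs. The CuO NPs + TTM lungs did not overlap the others, and the difference from control was 0.80 (limma adjusted p = 0.116). Il15, a survival factor of memory cells, had 13.4, 6.56 and 4.51 TPM in CuO NPs + TTM lungs, 6.08, 32.9 and 9.80 TPM in CuO NPs lungs, and 5.07, 8.27 and 8.69 TPM in control lungs, highest in the lung that was highest for Cd69.

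Cell type markers moved beside the members. All 18 T cell markers were present in every library, and their summed level was 1053 to 1789 TPM in CuO NPs + TTM lungs, 153 to 355 TPM in CuO NPs lungs and 233 to 321 TPM in control lungs. With CuO NPs + TTM against control, 13 of 18 were higher, against 1.79% of all genes. All 18 had every CuO NPs + TTM lung above every control lung, against 31.0% of all genes. Their median was 2.21, against 0.24 over all genes. The count called was 0 without replicate 2 or 3 of CuO NPs + TTM, or replicate 1 or 2 of the control. It was 1 without control replicate 3, and 17 without CuO NPs replicate 1, a setting in which 1676 genes of the table passed. Set against the mean log2 level of this list, Cxcr6 stood at -0.53, 1.11 and 0.99 in CuO NPs + TTM lungs, -1.34, -0.32 and 0.23 in CuO NPs lungs, and -0.56, -0.86 and -0.99 in control lungs. The replicates 2 and 3 of CuO NPs + TTM were above all other lungs on this relative scale, and replicate 1 lay within the range of the others. Cd69 relative to the list was -1.73, -2.46 and -2.44 in CuO NPs + TTM lungs, -1.49, 1.11 and -0.55 in CuO NPs lungs, and -0.72, -0.95 and -0.10 in control lungs. It was thus lower against T cell markers in all CuO NPs + TTM lungs than in any other lung. Itgae relative to the list was -3.70, -1.34 and -0.83 in CuO NPs + TTM lungs, -1.64, -1.73 and -0.30 in CuO NPs lungs, and -1.63, -1.61 and -2.82 in control lungs, with overlap. Relative to 9 markers of the dendritic cell subset that carries CD103, Itgae was -1.44, 0.50 and 0.51 in CuO NPs + TTM lungs, above CuO NPs lungs, at -1.97 to -1.51, and control lungs, at -2.62 to -1.81. The part of any cell type in these differences was not tested.

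Markers of endothelium, in which S1pr1 and Klf2 are abundant, had lower summed levels in exposed lungs. Of 15 endothelial markers limma called 0 in any comparison. At an unadjusted p under 0.05 there were 3 for CuO NPs + TTM against control (all genes 18.0%) and 2 for CuO NPs (all genes 7.95%). Their summed level was 1773 to 2130 TPM in CuO NPs + TTM lungs, 1428 to 2617 TPM in CuO NPs lungs and 2631 to 3261 TPM in control lungs, and the median difference from control was -0.54 with CuO NPs + TTM and -0.51 with CuO NPs. Relative to this list, S1pr1 was 0.09 to 0.17 in CuO NPs + TTM lungs, -1.07, 0.17 and -0.21 in CuO NPs lungs and 0.20 to 0.39 in control lungs. All exposed lungs lay below all control lungs on this scale too, with CuO NPs replicate 1 the lowest. Klf2 relative to the list was -1.04 to -0.33 in CuO NPs + TTM lungs, -1.74 to -0.69 in CuO NPs lungs and -0.99 to -0.16 in control lungs, and overlapped. The natural killer cell list had a median of -1.19 with CuO NPs against control and 0.45 with CuO NPs + TTM. Of 12 macrophage markers, from a cell type that makes Cxcl16, 3 were higher with CuO NPs + TTM than in control. Over all genes that share was 1.79%. With each library left out in turn, the count ran from 0 to 7, and was 0 in 4 of these settings. The list had medians of 1.43 with CuO NPs + TTM and 0.63 with CuO NPs against control. Cxcl16 relative to these markers was 1.21, 0.40 and 0.12 in CuO NPs + TTM lungs. It was 0.71, 0.46 and -0.37 in CuO NPs lungs, and 0.76, -0.22 and 0.55 in control lungs. Itga1 relative to smooth muscle and pericyte markers overlapped between groups, at -0.32 to -0.03 in CuO NPs + TTM lungs, -0.44 to 0.43 in CuO NPs lungs and -0.09 to 0.69 in control lungs.

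**Figure D4:**
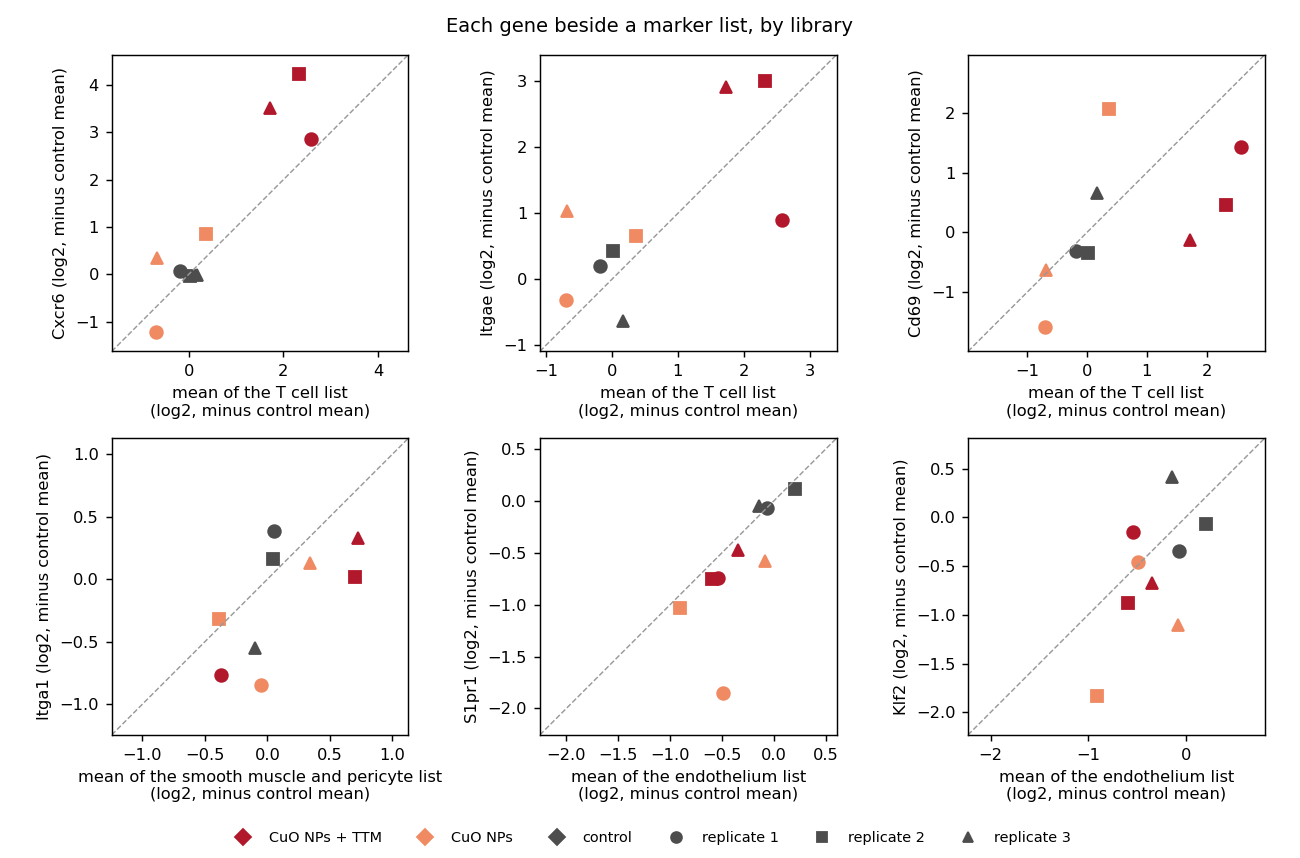
Level of a gene (vertical axis) against the mean of a marker list (horizontal axis), both as log2(TPM + 1) minus the control mean, 1 point per lung, with color for the group, shape for the replicate and a dashed line where both differ equally. The CuO NPs + TTM lungs lie to the right in the T cell panels, below the line for Cd69 and above it for Cxcr6.

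The genes with the profiles most like each member were found by the root mean square difference between mean-centred log2 profiles over the 9 libraries, as a description. For Cxcr6 they were Jchain, the joining chain of secreted antibodies, at 0.44, then Cd3g, Cd8a, Ctsw and Cd8b1 at 0.52 to 0.60, set beside a spread of 1.89 for Cxcr6 itself. In this set, Cd3g, Cd8a and Cd8b1, encode parts of the T cell receptor complex or its co-receptor. For Cxcl16 they were Ripk3, Tnfrsf11a, Ddx39, Efhd2 and Rap2b at 0.16 to 0.18. For Itgae the likeness was looser, with Col6a3, Ly6g5b, Inpp4b, Mrip-ps and Ccnf at 0.51 to 0.55. For Cd69 they were Ifi214, Nt5c3, Ms4a4d, Ifi209 and Slc28a2 at 0.29 to 0.41. In CuO NPs replicate 2, the lung highest for Cd69, Ifi209 of an interferon-inducible family was at 117 TPM, its highest level, and Ifi214 of the same family at 9.71 TPM, next to 10.4 TPM in CuO NPs + TTM replicate 1. For S1pr1 they were Fos, Fam219a, Crebl2, Tpst2 and Aff3 at 0.16 to 0.18, for Klf2 Arl4d, Rasgrp2, Hilpda, Rspo1 and Grap at 0.23 to 0.29, and for Itga1 Cacnb2, Cdh2, Ttl, Ptar1 and Prkab2 at 0.09 to 0.12.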

How the data were processed

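RNA of whole lung was measured in 9 mice as poly(A)-selected, strand-marked libraries, per the labels' protocols. The authors deposited 1 table of TPM for 57010 genes, and every library sums to 1000000, so the sequencing depth is unknown and no counting interval can be given. Per the submitters' processing notes, fastp, HISAT2, RSEM and DESeq2 and the build GRCm39 are named, without versions, and the sources used here do not state the strand setting of the counting. Symbols matched 52029 identifiers, and overlaps between genes were read from a GRCm38 annotation.

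Groups came from sample titles, and no 2 libraries were identical (0 pairs). Log2(TPM + 1) was fitted with limma 3.58.1 in R 4.3.3, for genes reaching 1 TPM in 3 or more libraries, with a mean per group over all 9 libraries, a trend on abundance and Benjamini-Hochberg adjustment over 15487 genes at 0.05. Log2 differences understate the change of low genes. The p-values set differences against the spread between mice. The procedure was tested on simulated data. The 7 genes, the gene lists and the tests were chosen with earlier results of these data known. Named genes are the 7, the genes of each list that passed (at most 5 by smallest p), fixed partners and factors, and for each of the 7 the 5 genes of nearest profile. Of the fixed genes, 1 is not reported here. Alternatives were other scalings, a pseudocount of 0.1, no filter, no trend, the replicate number as a block, and leaving out libraries, replicates 2 and 3 of CuO NPs + TTM also together.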

Additional observations from a re-analysis of the deposited data

How the results depend on the processing

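Of 357 differences of single members, counted for each alternative, 344 kept their sign and 13 changed it. Of the 204 that carry an adjusted p, 6 passed the threshold, which 0 of the 12 tested differences did with all libraries and the main settings. With each library left out, Cd69 ranged from -1.11 to 0.72 between CuO NPs and control, and Itga1 from -0.41 to 0.17 between CuO NPs + TTM and control. Without CuO NPs replicate 1, Cxcr6 turned to 0.60 between CuO NPs and control, and Cd69 to -0.13 between CuO NPs + TTM and CuO NPs. Without control replicate 1, Cxcr6 turned to 0.02 between CuO NPs and control. Between CuO NPs + TTM and CuO NPs, Itga1 turned to -0.05 with quantile normalization, -0.03 with median-ratio scaling or without CuO NPs + TTM replicate 3, -0.04 without CuO NPs replicate 1, and -0.42 with CuO NPs + TTM replicates 2 and 3 left out together. The cause was not tested. Counts of members called below can include Cxcr6, which led to the choice of genes. They are therefore a description, and nothing is read from them. Between CuO NPs + TTM and control, the highest of these counts, 4, was without CuO NPs replicate 1, where 1676 genes were called. Between CuO NPs + TTM and CuO NPs, 110 genes were called, against 41 with a pseudocount of 0.1, 30 with no filter, and 1 to 139 with each library left out. Between CuO NPs and control, 0 genes were called, against 7 with median-ratio scaling, 3 with no filter, 3 with the replicate block, and 0 to 35 with each library left out. Between CuO NPs + TTM and control, 294 were called, against 121 without Scgb1a1, 183 with a pseudocount of 0.1, 56 with no filter, 113 with the replicate block, 0 without the 2 libraries, and 3 (without control replicate 2) to 1676 (without CuO NPs replicate 1) with each left out; members called were 1, against 2 with median-ratio scaling, 0 with no filter, 0 without the 2 libraries, and 0 to 4. Same-numbered lungs did not deviate together, with correlations of -0.37 to 0.29 over 9 pairs, and a lung was most like its own number in 2 of 18 cases, so the numbers are not taken as pairs. Where a setting leaves 1 lung in a group, that lung is assumed to vary like the others. TPM keep no depth, so how far depth limits low genes such as Itgae is unknown.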

Other observations

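Genes that handle sphingosine 1-phosphate, the ligand of S1PR1, are described here, chosen after their values were seen. Plpp3, a phosphatase that breaks the lipid down at the cell surface, had 49.2, 52.3 and 66.7 TPM in CuO NPs + TTM lungs, 14.9, 62.7 and 70.4 TPM in CuO NPs lungs, and 105, 98.9 and 97.7 TPM in control lungs. All exposed lungs were below all control lungs, with log2 differences of -0.84 for CuO NPs + TTM (limma adjusted p = 0.412) and -1.28 for CuO NPs (limma adjusted p = 0.558). Sgpl1, the lyase that degrades it inside cells, had 48.2, 56.7 and 53.0 TPM in CuO NPs + TTM lungs, 20.6, 55.9 and 54.7 TPM in CuO NPs lungs, and 22.1, 29.3 and 23.0 TPM in control lungs, a difference of 1.06 between CuO NPs + TTM and control (limma adjusted p = 0.169). CuO NPs replicate 1 was the lowest of all 9 lungs for both genes, and its median gene was also the lowest of all libraries.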
